A study of Homo sapiens with 6 samples.

Results

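The genes described here are 10 genes grouped as immediate early, a class of which many are switched on within minutes of a stimulus without new protein synthesis: FOS, FOSB, JUN, JUNB, JUND, EGR1, DUSP1, CYR61 (now CCN1), IER2 and KLF6. They were chosen by symbol as named sets of the AP-1 and MAP kinase response, with earlier results of these data known. The counts of these genes and of the gene lists below, set beside the shares of all genes, are therefore a description and no test of a set. All 10 were listed in each of the 3 experiments, against 17602, 16293 and 22642 genes listed in all. RNA-seq libraries, 6 in all, came from C4-2B, an established human prostate cancer line that derives from LNCaP and metastasises to bone. Each experiment had 1 vehicle and 1 treated library, in medium with 9% charcoal-stripped and 1% regular serum. RNA was taken after 48 h, so the first minutes of a response were not sampled. The first experiment used SR2211, a nuclear receptor inverse agonist, at 5 µM. The second used XY011, known here by its code name alone, at 5 µM. The third used enzalutamide (ENZ), a prostate cancer drug, at 20 µM. All 6 libraries therefore share the hormone-depleted medium, vehicles included. The extraction text names another code where XY011 would stand and SR2211 where ENZ would stand, so groups were taken from sample titles and named agents.

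JUN, JUNB and JUND, with FOS, FOSB and their relatives, are basic leucine zipper proteins that pair to form the transcription factor AP-1. JUN proteins pair with each other or with FOS proteins, while FOS proteins need a JUN partner. Growth factor, serum and stress signals reach these genes through the MAP kinases ERK, JNK and p38 and through the factors SRF, ELK1 and CREB/ATF. EGR1 and KLF6 are zinc finger transcription factors of the same early wave, and IER2 is a nuclear protein of it. DUSP1 is a phosphatase that takes the phosphates off JNK, p38 and ERK and so damps the signal that induced it. CYR61 is a secreted matrix protein that binds integrins and is a textbook target of SRF and of YAP.

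Promoters are shown for 4 of these genes: DUSP1 and JUND, which had the largest proportional changes of the group with SR2211 apart from FOS, JUN, which had a smaller one, and EGR1, which stayed near the detection limit. Each line gives the 250 bases before the RefSeq gene start on the gene's own strand (GRCh38.p14, whereas the expression tables use hg19). DUSP1 lies at chr5:172771196-172771445 on the minus strand, JUND at chr19:18281623-18281872 (minus), JUN at chr1:58784048-58784297 (minus) and EGR1 at chr5:138465229-138465478 (plus). Capitals mark matches on either strand to TGACNTCA, a pattern of ATF/CREB and AP-1 type sites, to TGACG, which lies within TGACGTCA, or to the CArG box, the SRF site.
DUSP1: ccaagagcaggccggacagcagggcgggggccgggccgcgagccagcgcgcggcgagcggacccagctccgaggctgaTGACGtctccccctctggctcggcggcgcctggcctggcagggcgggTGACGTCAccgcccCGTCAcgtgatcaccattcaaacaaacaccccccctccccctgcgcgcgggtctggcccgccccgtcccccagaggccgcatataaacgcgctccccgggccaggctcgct
JUND: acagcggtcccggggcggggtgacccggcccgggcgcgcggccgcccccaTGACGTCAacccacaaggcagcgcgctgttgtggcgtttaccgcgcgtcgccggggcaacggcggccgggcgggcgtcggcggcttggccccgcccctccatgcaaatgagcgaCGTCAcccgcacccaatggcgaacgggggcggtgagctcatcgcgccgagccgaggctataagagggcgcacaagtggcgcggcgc
JUN: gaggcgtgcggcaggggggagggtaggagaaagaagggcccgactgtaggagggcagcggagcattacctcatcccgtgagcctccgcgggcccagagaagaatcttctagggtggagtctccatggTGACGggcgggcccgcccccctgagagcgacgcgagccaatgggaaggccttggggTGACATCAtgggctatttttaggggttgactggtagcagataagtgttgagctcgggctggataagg
EGR1: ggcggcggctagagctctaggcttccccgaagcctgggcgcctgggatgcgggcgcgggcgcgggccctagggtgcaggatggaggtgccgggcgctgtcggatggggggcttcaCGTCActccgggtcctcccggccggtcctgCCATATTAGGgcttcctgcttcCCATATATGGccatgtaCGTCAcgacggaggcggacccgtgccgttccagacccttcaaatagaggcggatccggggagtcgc
DUSP1 held TGACGTCA 125 to 118 bases before its start and JUND 200 to 193 bases before. JUN held TGACATCA 67 to 60 bases before its start, and KLF6, not printed, held the same letters 172 to 165 bases before. Matches to TGACNTCA were thus found in 4 of the 9 promoters available, against 7.09% of all 27305 promoters of this length. The exact TGACGTCA occurs in 1.77% of all promoters. JUNB, whose level was above its vehicle with SR2211 and XY011, held no TGACNTCA, nor did FOS, FOSB, EGR1 and IER2. The TGACNTCA and CArG patterns were picked after these promoters were read, so shares among the 9 are no test against all promoters. Within these 250 bases EGR1 held 2 CArG boxes, CCATATTAGG and CCATATATGG, and no other of the 9 held one, where 1.14% of all promoters do. Sites further from the start, or of looser sequence, were not searched for, so the others may still have an SRF site. CYR61 had no entry. A match describes these letters and is not evidence of a bound factor.

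JUND, the most abundant of the 10 in every library, went from 56.4 RPKM in vehicle to 179.7 RPKM with SR2211, from 37.1 to 299.5 FPKM with XY011, and was at 135 and 133 FPKM in the ENZ experiment. JUN went from 12.6 to 28.6 RPKM with SR2211 and from 5.59 to 22.7 FPKM with XY011, and stood at 18.3 and 20.9 FPKM without and with ENZ. JUNB went from 15.6 to 32.1 RPKM, from 6.31 to 15.5 FPKM, and was at 29.6 and 32.9 FPKM. All 3 JUN genes therefore stood above their vehicle with both 5 µM compounds, at 3.19, 2.26 and 2.06 times for JUND, JUN and JUNB its level with SR2211 and at 8.08, 4.06 and 2.45 times with XY011, while no ratio with ENZ was above 1.14. RPKM and FPKM scale reads or fragments by gene length and library depth, so levels compare between genes of a library, but the tables were normalized separately.

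FOS was at the detection limit in 2 of the 3 vehicles. It was listed at the value standing for no reads in the SR2211 vehicle and at 0.851 RPKM with SR2211, and likewise without reads in the XY011 vehicle and at 1.70 FPKM with XY011. In the ENZ experiment it went the other way, from 2.00 FPKM to 0.738 with the drug. FOSB stayed low throughout, at 0.258 and 0.162 RPKM, 0.180 and 0.570 FPKM, and 0.263 and 0.509 FPKM. In each of the 6 libraries, FOS and FOSB thus stood below all 3 JUN genes. Strand use is not stated, so reads of a gene and of an overlapping antisense gene cannot be told apart.

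**Figure D1:**
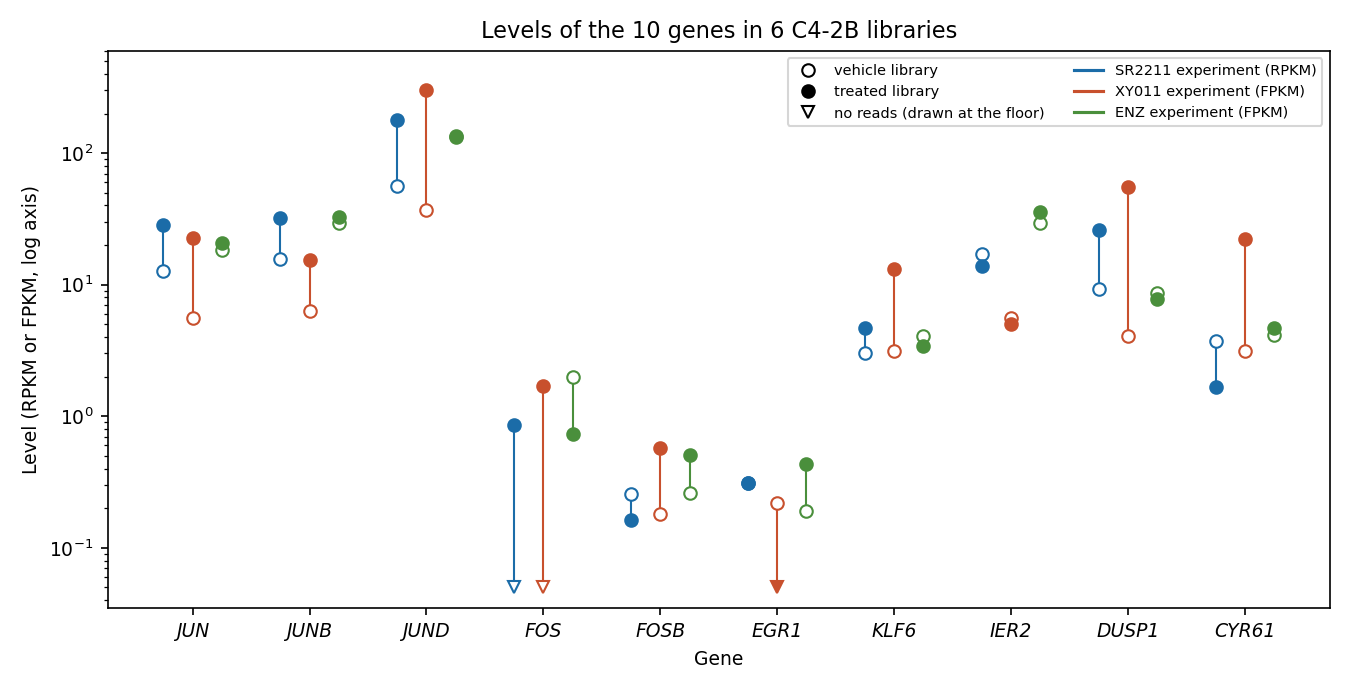
Level of each gene (log axis, RPKM in the SR2211 experiment and FPKM in the others) in the vehicle library (open) and treated library (filled) of each experiment, with 1 library per point and triangles for values that stand for no reads. JUND is the highest in every library, and FOS, FOSB and EGR1 lie at 2.00 or below.

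Among the other early transcription factors, EGR1 was at 0.311 and 0.312 RPKM without and with SR2211. It was at 0.220 FPKM in the XY011 vehicle, without reads with XY011, and at 0.190 and 0.437 FPKM in the ENZ experiment. KLF6 went from 3.05 to 4.71 RPKM with SR2211 and from 3.12 to 13.1 FPKM with XY011, and was at 4.10 and 3.40 FPKM in the ENZ experiment. IER2 moved least with both compounds among the genes above 1, at 17.2 and 13.8 RPKM, 5.63 and 5.02 FPKM, and 29.4 and 35.6 FPKM. So KLF6 was above its vehicle with both 5 µM compounds, as the JUN genes were, and IER2 was slightly below.

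DUSP1 went from 9.33 to 25.9 RPKM with SR2211 and from 4.10 to 54.9 FPKM with XY011, a ratio of 13.4 and the largest of the genes with reads in both libraries. With ENZ it was at 8.71 and 7.77 FPKM. CYR61 differed in direction between the 5 µM compounds. It went from 3.72 to 1.65 RPKM with SR2211 and from 3.15 to 22.2 FPKM with XY011, and was at 4.11 and 4.68 FPKM in the ENZ experiment. The 3 vehicle values of CYR61 lay close together, and the treated values lay far apart.

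Changes are given as log2((treated + 1)/(vehicle + 1)), and a gene reaching a value of 1 in either library counts as higher or lower from a log2 change of 1 in that direction. With 1 library per group this rule has no replicate check and no p-value. With SR2211, 7 of the 10 genes reached a value of 1, and 3 were higher (DUSP1, JUN and JUND) and 0 lower, against 5.1% of all 12150 genes higher and 5.75% lower (10.9% in either direction). The median log2 change of those 7 was 1.00 and that of all genes -0.07. JUNB lay just under the rule at 0.998, and JUN just over it at 1.12. With XY011, 8 reached a value of 1 and 7 were higher, all but IER2, against 7.59% of 12614 genes higher and 13.2% lower (20.8% in either direction), with medians of 1.81 and -0.14. FOS had no reads in that vehicle and met the minimum through the treated library alone, so it could not have been called lower, and without it 6 of 7 were higher with a median of 1.85. With ENZ, 8 reached a value of 1 and 0 were called, against 3.68% of 19270 genes higher and 4.67% lower (8.34% in either direction), with medians of 0.06 and -0.02. The largest change with ENZ was that of FOS, at -0.79. FOSB and EGR1 stayed under 1 in all 6 libraries and were not judged by the rule, nor was FOS with SR2211. With each pair centred so that its median gene had no change, the calls over all genes became 726 higher and 568 lower with SR2211 (620 and 699 as deposited) and 1271 and 1215 with XY011 (957 and 1662), and JUNB then passed with SR2211 at 1.06. With a pseudocount of 0.1, CYR61 was lower with SR2211 at -1.12, so 1 gene in place of 0 was lower.

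**Figure D2:**
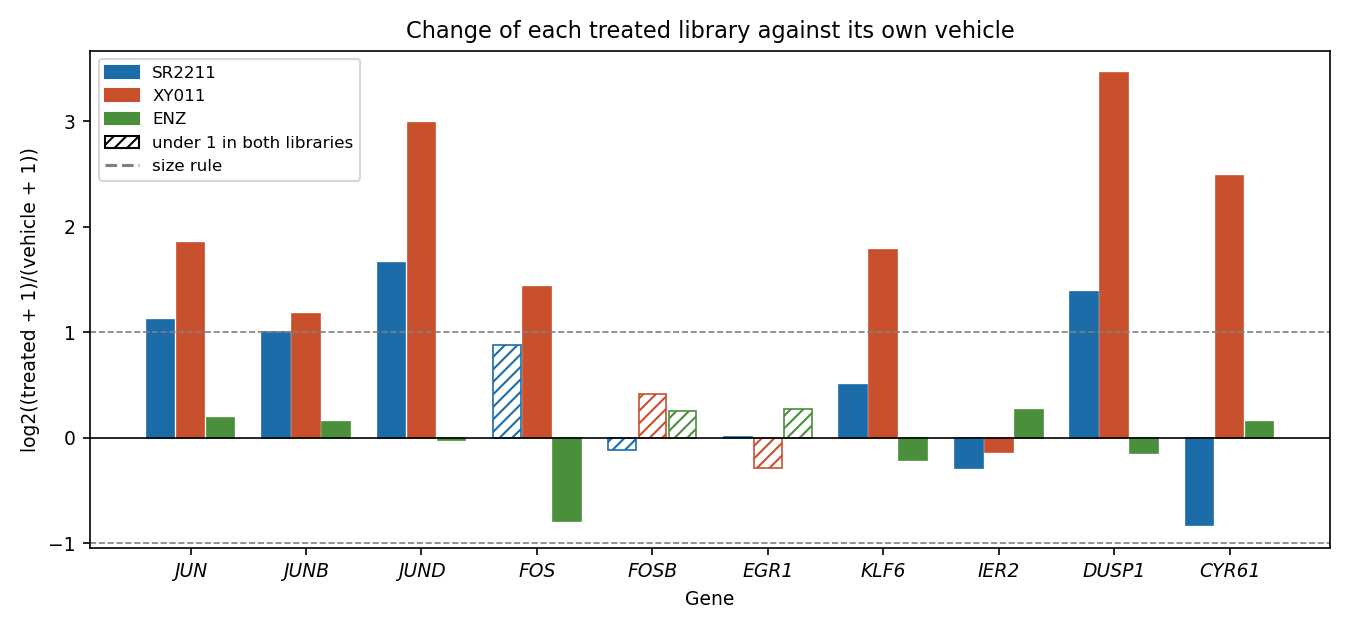
Change of each gene on the log2((treated + 1)/(vehicle + 1)) scale with SR2211, XY011 and ENZ, each against its own vehicle and 1 library per group; dashed lines mark the size rule and hatched bars are genes under 1 in both libraries. Bars of XY011 pass the upper line for 7 genes, and no bar of ENZ passes either line.

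Read numbers could be worked out for the SR2211 pair, whose libraries had an estimated 8200000 (vehicle) and 8160000 (treated) mapped reads. JUND had 874 reads in vehicle and 2772 with SR2211, a depth-scaled ratio of 3.19 with an exact 95% interval of 2.95 to 3.44. DUSP1 had 156 and 432 reads (ratio 2.78, interval 2.31 to 3.36), JUN 346 and 779 (2.26, 1.99 to 2.57) and JUNB 234 and 480 (2.06, 1.76 to 2.42). These intervals, which cover counting error alone and not the spread between cultures, all lie above 1. CYR61 had 70 and 31 reads, a ratio of 0.445 with an interval of 0.282 to 0.688, so its lower level with SR2211 was beyond counting error. KLF6 had 117 and 180 reads (1.55, 1.22 to 1.97) and IER2 294 and 236 (0.806, 0.677 to 0.960). FOS had 0 reads in vehicle and 15 with SR2211. With the vehicle library set to the floor of 3 reads its depth-scaled ratio was 5.02. That value has no interval and leaves out the counting error of the 15 reads. FOSB had 8 and 5 reads and EGR1 8 and 8, with intervals of 0.162 to 2.18 and 0.329 to 3.07, so a change of either was not detectable at this depth. For XY011 and ENZ no read numbers were recovered, and their depth is unknown.

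The JUN and FOS families were then set side by side, adding the FOS relatives FOSL1 and FOSL2 to the 5 AP-1 members. Their summed level went from 91.8 to 251 RPKM with SR2211 and from 55.9 to 353 FPKM with XY011, and was 201 and 204 FPKM without and with ENZ. JUND made up 61.5% of that sum in the SR2211 vehicle and 71.5% with SR2211, 66.3% and 84.8% in the XY011 experiment, and 66.9% and 65.0% in the ENZ experiment. The 4 FOS genes together held 7.79% and 4.36%, 12.5% and 4.36%, and 9.33% and 8.62%. FOSL2 was the main FOS family transcript everywhere, at 6.80 and 9.79 RPKM, 6.65 and 12.8 FPKM, and 16.4 and 14.2 FPKM. The summed level of those 4 was 7.15 and 10.95 RPKM, 6.97 and 15.4 FPKM, and 18.8 and 17.6 FPKM. With both 5 µM compounds the FOS family sum was thus above its vehicle, and the JUN family sum was above its own by a larger factor (84.6 and 240 RPKM, 48.95 and 338 FPKM). These are shares of RNA, and in bulk RNA a change in the number of expressing cells cannot be told apart from one in RNA per cell.

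**Figure D3:**
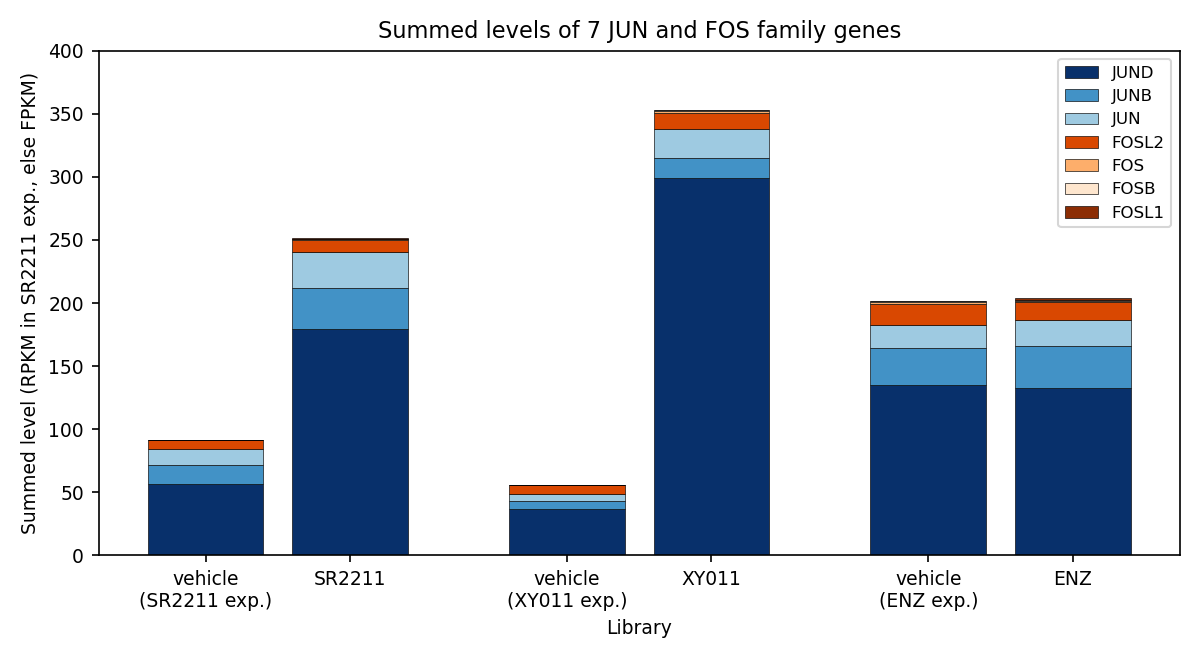
Summed level of 7 JUN and FOS family genes per library (RPKM in the SR2211 experiment, FPKM elsewhere), stacked by gene, 1 library per bar. The stacks with SR2211 (251) and XY011 (353) stand above their vehicles (91.8 and 55.9), and those of the ENZ experiment are level (201 and 204).

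SR2211 and XY011 were compared at the same dose and time. This was the 1 pair of compounds compared, and with 1 library each the difference has no test and no interval. The log2 change with XY011 exceeded that with SR2211 by 3.31 for CYR61, 2.07 for DUSP1, 1.33 for JUND and 1.28 for KLF6. Of 11224 genes that reached a value of 1 in each experiment, none had a larger difference in that direction than CYR61, 4 had a larger one than DUSP1, 60 than JUND and 76 than KLF6, and the median difference was -0.06. JUN (0.73), JUNB (0.18) and IER2 (0.15) differed by less than 1, and 519 of the 11224 genes had a larger difference in that direction than JUN. The vehicles differed too: those of the XY011 experiment were lower, with log2 differences from those of the SR2211 experiment of -1.05 for JUN, -1.18 for JUNB, -1.02 for DUSP1 and -1.45 for IER2, on tables of different unit. JUN and JUNB were at lower values with XY011 (22.7 and 15.5 FPKM) than with SR2211 (28.6 and 32.1 RPKM) although their ratios to vehicle were larger. The part of the vehicle level in those ratios was not tested. With a pseudocount of 0.1 in place of 1, 7 genes in place of 4 differed by 1 or more, the added ones being FOS, FOSB and EGR1, all at 1.70 or below in these 4 libraries. The share of all genes differing by that much was not counted at either pseudocount, so these counts describe the members alone. For CYR61 and KLF6 the vehicles differed by -0.19 and 0.02, and their treated values by far more.

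**Figure D4:**
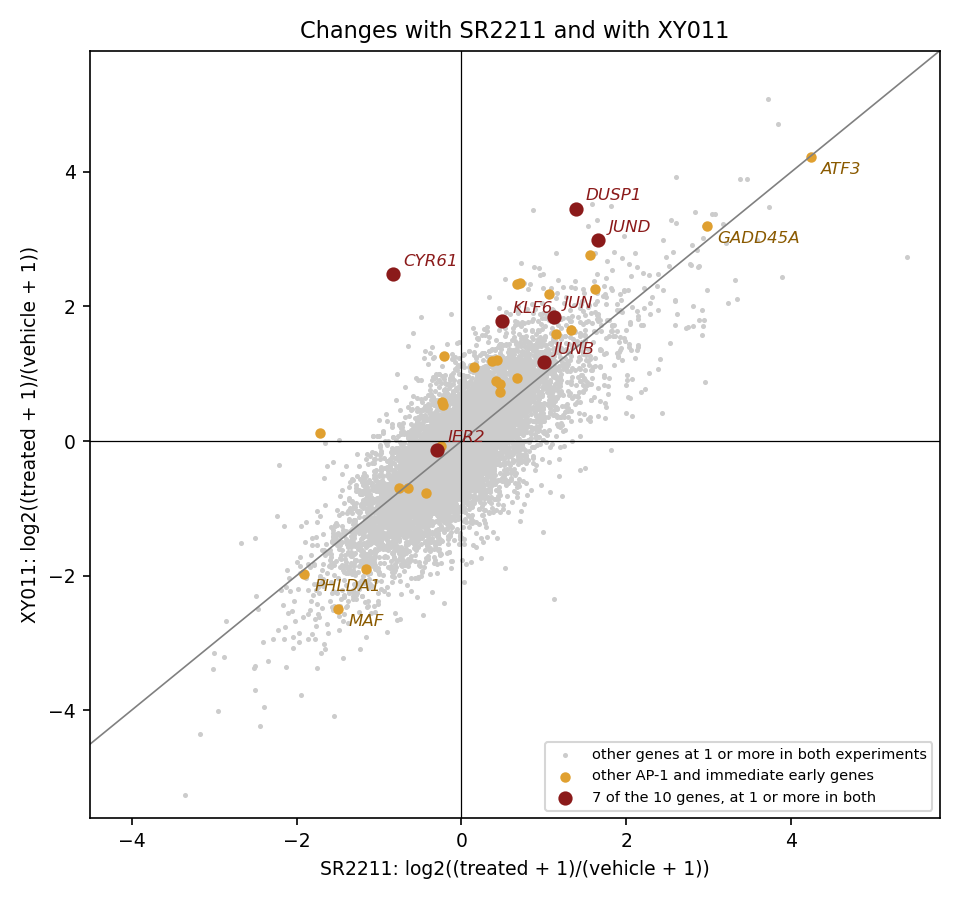
Log2 change with SR2211 (horizontal) against XY011 (vertical), 1 pair of libraries each, for 11224 genes that reached a value of 1 in each experiment (grey), the other AP-1 and immediate early genes (orange) and 7 of the 10 genes (red); the diagonal marks equal change. CYR61 lies at -0.83 and 2.48, and DUSP1, JUND and KLF6 lie above the diagonal.

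Vehicle levels give the spread between vehicle cultures of this line, mixed with differences in unit and processing. Of the 8 genes at 1 or more in some vehicle, 6 had a log2 difference reaching 1 between at least 1 pair of vehicles: FOS, JUN, JUNB, JUND, DUSP1 and IER2. IER2 ranged most, from 5.63 FPKM in the XY011 vehicle to 29.4 FPKM in the ENZ vehicle, and CYR61 and KLF6 least, from 3.15 to 4.11 and from 3.05 to 4.10. Of 12369 genes at 1 or more in some vehicle, 45.4% did so in at least 1 pair. By pair, 8.87% of all genes differed by that much between the XY011 and SR2211 vehicles (4.63% higher and 4.24% lower in that of XY011). In the ENZ vehicle, 33.2% did against that of SR2211 (30.7% higher, 2.42% lower) and 38.5% against that of XY011 (34.9% higher, 3.66% lower). The changes of JUND were 1.65 with SR2211 and 2.98 with XY011, and its vehicles differed by up to 1.84. Those of JUNB (1.00 and 1.17) were smaller than its widest vehicle difference (2.06), and those of JUN were 1.12 and 1.85, against 1.55. The changes of DUSP1 (1.38 and 3.45) were larger than its widest vehicle difference (-1.02). For KLF6 the changes were 0.50 and 1.78, against 0.33, and for CYR61 -0.83 and 2.48, against 0.30.

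A change shared by both 5 µM compounds was tested in limma across 11901 genes over 6 libraries, with the experiment as a block and 1 residual degree of freedom. The residual of each gene is the spread between these 2 compounds, and limma moderated it towards a value pooled over all genes (prior SD 0.209, prior degrees of freedom 5.41). Most of the error behind each p is thus borrowed from other genes and not from replicates of a condition. By limma with Benjamini-Hochberg adjustment, JUND rose by a log2 value of 2.32 (SE 0.32, adjusted p = 0.00883) and DUSP1 by 2.42 (SE 0.45, adjusted p = 0.0170), each higher in 2 of 2 experiments. JUN (1.48, SE 0.24, adjusted p = 0.0122), JUNB (1.09, SE 0.19, adjusted p = 0.0154) and KLF6 (1.14, SE 0.32, adjusted p = 0.0468) also rose. CYR61 (0.83, 95% interval -0.82 to 2.47, adjusted p = 0.399) and IER2 (-0.22, SE 0.19, adjusted p = 0.439) did not pass, and FOS, FOSB and EGR1 had a mean under 1 and were not tested. So 5 of 7 passed, all upward, against 9.41% of all genes upward and 13.8% downward (23.2% in either direction). With a pseudocount of 0.1 in place of 1, 0 of the 11901 genes passed in limma (4101 had an unadjusted p under 0.05), and the adjusted p of these 5 lay between 0.0707 and 0.125. Over all 6 alternatives of this limma fit the adjusted p of JUND ran from 0.000613 to 0.0707 and that of KLF6 from 0.0298 to 0.125.

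Other AP-1 genes did not move as one group. Of 11 measured with each 5 µM compound, 2 were higher and 2 lower with SR2211 and 4 higher and 2 lower with XY011, and 1 of 12 was higher and 3 lower with ENZ. Of all genes, 5.1% were higher and 5.75% lower with SR2211, 7.59% and 13.2% with XY011, and 3.68% and 4.67% with ENZ. ATF3, a stress-induced AP-1 partner, went from 6.76 to 145 RPKM with SR2211, from 9.62 to 197 FPKM with XY011 and from 17.3 to 23.4 FPKM with ENZ. JDP2, a repressor that dimerises with JUN, went from 1.67 to 7.18 RPKM, from 1.48 to 10.8 FPKM and from 20.7 to 36.3 FPKM. MAF, a basic leucine zipper factor gene, was lower in all 3 experiments, from 5.91 to 1.46 RPKM, from 5.74 to 0.190 FPKM and from 22.6 to 2.09 FPKM. FOSL1 was at 0.120 and 2.14 FPKM without and with ENZ, meeting the minimum through the treated library alone, and stayed under 1 in the other 4 libraries, where it was not judged.

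Of the other immediate early genes, 6 of 19 measured were higher and 2 lower with SR2211, 9 of 17 higher and 1 lower with XY011, and 0 of 19 higher and 1 lower with ENZ (medians 0.27, 1.10 and 0.16). The shares of all genes higher and lower were 5.1% and 5.75%, 7.59% and 13.2%, and 3.68% and 4.67%. The growth arrest gene GADD45A went from 3.40 to 33.7 RPKM with SR2211 and from 3.96 to 44.2 FPKM with XY011, and the RNA-binding protein genes ZFP36 (log2 1.14 and 1.59) and ZFP36L1 (1.55 and 2.76), whose products destabilise early mRNAs, were higher with both. So were BTG2 (1.33 and 1.65), an antiproliferative gene, and BHLHE40 (1.06 and 2.18), a repressor of the clock. PHLDA1, a gene linked to cell survival, was lower with both at -1.91 and -1.98. With ENZ the extremes were ZFP36L1 (0.82) and SGK1 (-1.72), a kinase gene.

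MAP kinase phosphatases and feedback genes other than DUSP1 passed the rule in both directions. Of 13 measured in each experiment, 1 was higher and 3 lower with SR2211, 2 higher and 3 lower with XY011 and 1 higher and 1 lower with ENZ. Of all genes, 10.9%, 20.8% and 8.34% passed in either direction, and the list's medians (-0.17, -0.14 and -0.16) stand beside -0.07, -0.14 and -0.02 for all genes. DUSP5, a nuclear ERK phosphatase gene, went from 0.24 to 2.41 RPKM with SR2211 and from 0.180 to 2.15 FPKM with XY011. It was the 1 gene higher with SR2211. DUSP5 met the minimum through the treated library alone with both compounds, so it could not have been called lower. DUSP9 was lower with both (log2 -1.27 and -1.04), and DUSP4 was lower with SR2211 (-1.27) and ENZ (-1.51). The largest decrease with SR2211 was that of SPRY1 (-1.35), the largest with XY011 that of DUSP7 (-1.41), and the largest increase with XY011 that of DUSP8 (1.49), which encodes a JNK phosphatase. ETV5, an ETS factor gene of the ERK response, led with ENZ (0.611 to 3.05 FPKM, log2 1.33). It too met the minimum through the treated library alone and could not have been called lower.

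Of 25 kinases and factors upstream, 0 passed with SR2211, 2 were higher and 2 lower with XY011 and 1 was lower with ENZ, against 10.9%, 20.8% and 8.34% of all genes in either direction. SRF went from 19.1 to 47.9 FPKM with XY011 and stood at 19.0 and 22.4 RPKM with SR2211. RPS6KA3, a kinase gene downstream of ERK, had the largest decrease with SR2211 and XY011 (-0.84 and -1.55), MAPK8 (JNK1) the largest increase with SR2211 (0.44), and MAPK7 (0.83) and ELK4 (-1.19) were the extremes with ENZ. By direction, 7.59% of all genes were higher and 13.2% lower with XY011, 5.1% and 5.75% with SR2211, and 3.68% and 4.67% with ENZ. Of 12 SRF targets of the actin cytoskeleton, 7 were higher and 2 lower with XY011, 2 higher and 1 lower with SR2211 and 0 either way with ENZ. Among them MYL9 (2.04 with SR2211, 2.64 with XY011) and the focal adhesion gene ZYX (1.72 and 2.30) were higher with both, TAGLN2 was lower with both (-1.04 and -1.06), and TPM1 had the largest decrease with XY011 (-1.47) and ENZ (-0.89). ZYX had the largest increase of the list with ENZ (0.87). Of the 7 higher with XY011, ACTA2 (0.160 to 1.87 FPKM) and FHL2 (0.590 to 2.89 FPKM) met the minimum through the treated library alone. Neither could have been called lower.

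Downstream lists held few expressed genes. Of all genes, 5.1% were higher and 5.75% lower with SR2211, 7.59% and 13.2% with XY011, and 3.68% and 4.67% with ENZ. With 1 to 4 genes measured per list, single calls cannot be set apart from these shares. Of 14 AP-1 targets, 1, 2 and 3 were measured in the 3 experiments, and the collagenase, interleukin and urokinase genes of the list stayed under 1 or were not listed. CCND1 (cyclin D1) was at 114 and 64.0 RPKM with SR2211 (log2 -0.83), and TIMP1 went from 4.35 to 11.3 FPKM with ENZ, where CD44 was at -0.58. Of the ERK-linked ligands, 2 of 7 were measured in each and none passed, HBEGF being at 0.78, 0.63 and -0.03 and TGFA at 0.49 with ENZ. Of the YAP targets, 4 of 7 were measured, and LATS2 passed with XY011 (1.03, against 0.62 with SR2211), while CRIM1 was at -0.45, -0.58 and -0.90 and AMOTL2 at 0.85 with ENZ. CYR61's close relative CTGF had no reads in the vehicles of SR2211 and XY011, and stood at 0.0520 RPKM with SR2211 and at 0.550 FPKM with XY011, and at 2.92 and 3.33 FPKM in the ENZ experiment.

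By the distance between log2 changes in the 3 experiments, the genes closest to the median of the 10 (0.69, 1.61 and 0.15) were RRAS, DUSP8, HES1, PHF21A, EFNA1 and HERPUD1, at distances of 0.13 to 0.20 among 8146 genes. Those closest to DUSP1 were YPEL2, PIM1, CCNG2 and MKNK2, at 0.71 to 0.82. RRAS, a RAS family GTPase gene, had changes of 0.61, 1.5 and 0.18, and PIM1, a kinase gene, 1.58, 3.52 and 0.54. With 3 points per gene this likeness is a description.

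The identity of the cells was checked on markers. All 11 luminal prostate markers had reads in every library, and all reached 1 except ACPP with XY011 (0.86 FPKM). Their summed level was lower in each treated library, from 3073 to 1035 RPKM with SR2211, from 3062 to 1273 FPKM with XY011 and from 5331 to 3076 FPKM with ENZ. Single markers differed from the sum. Above their vehicle were 2 of 11 with SR2211 (log2 0.09 for KRT8 and 0.05 for ACPP) and 2 with XY011 (0.32 for TMPRSS2 and 0.07 for KRT8). With ENZ 3 were above it (0.33 for HOXB13, 0.22 for KLK4 and 0.11 for ACPP), and the rest were below. Of 3 basal markers, TP63 was listed in no library and KRT5 in the ENZ experiment alone (1.10 and 0.554 FPKM), while KRT14 was at 1.33 and 0.296 RPKM, 3.02 and 0.8 FPKM, and 3.39 and 1.53 FPKM. Of 4 immune markers, CD3E was listed in no library and PTPRC reached 0.180 FPKM at most, while CD68 was at 4.43 and 6.02 RPKM, 10.1 and 13.1 FPKM, and 8.62 and 8.40 FPKM. The 3 endothelial markers stayed under 1. Fibroblast markers summed to 2.00 to 5.8 in the first 4 libraries and to 28.1 and 44.6 FPKM in the ENZ experiment. The part of these marker changes in the levels of the 10 genes was not tested.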

How the data were processed

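RNA-seq tables of 6 libraries were used as deposited. RPKM values (SR2211 experiment) and FPKM values (XY011 and ENZ experiments) were computed by the authors, and poly(A)-selected TruSeq libraries were made per the labels' protocols. BWA, Bowtie, Cufflinks, Cuffdiff, GRCh37 and hg19 are named in the submitters' processing notes; the sources used here do not say which tool made which table, nor the annotation or strand setting. No reads stood at 0.01 (SR2211), 0.001 (XY011) and 0 (ENZ), and the ENZ table has no gene at 0 in its vehicle.

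Tables were joined by Entrez identifier or symbol, 96 repeated ENZ lines were summed, and small RNA genes were left out. Changes are log2((treated + 1)/(vehicle + 1)) for genes at 1 or more in either library. limma 3.58.1 (R 4.3.3) fitted log2(value + 1) of 11901 genes with a mean of 1 or more in all 3 tables, with experiment, a term for SR2211 and XY011 and one for ENZ. Libraries are 1 per group, so no p-value measures the spread between replicates. Each p-value rests on the spread between SR2211 and XY011, moderated mostly towards a value pooled over all genes. In the SR2211 pair, depth came from microRNA genes (26 and 35, whole within 0.01 read in 100% and 97.1%), and members' reads are the smallest whole numbers whose ratio matched and whose implied whole length lay within 6% of a GENCODE 29 transcript; the interval is Clopper-Pearson. Scripts were tested on simulated data. Promoters are from RefSeq (9 of 10 members matched). Motifs were picked after the sequences were read. Members and 8 gene lists were chosen with earlier results of these data known. Named list genes are those past the rule in the same direction in at least 2 experiments and each list's extremes, of which some are not reported here; pattern-like genes are the 6 and 4 nearest at 5 or more in each experiment. Alternatives were other pseudocounts, scalings, filters and fold rules.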

Additional observations from a re-analysis of the deposited data

Results flagged for a closer look

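CYR61 had opposite changes with the 2 compounds given at 5 µM: its log2 change was -0.83 with SR2211 and 2.48 with XY011, a difference of 3.31. With 1 library per group the difference was not tested. Reads in the SR2211 pair were few (70 and 31), and in the XY011 pair read numbers were not recovered.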

How the results depend on the processing

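No paired analysis by replicate number was possible because each group has 1 library and the labels give no replicate numbers to block on; each treated library was compared with the vehicle of its own experiment throughout, the limma fit included. Each change of the 10 genes was recomputed under 4 alternatives, and 106 of 120 values kept their side of the size rule and their sign, 14 did not and 0 called changes reversed. Counts of genes higher ranged from 2 to 4 with SR2211 (3 as reported), from 5 to 7 with XY011 (7) and stayed at 0 with ENZ, under the alternatives tried; with a pseudocount of 5, JUN (0.93) left the calls of SR2211 and FOS (0.42) and JUNB (0.86) those of XY011. The 1.5-fold rule gave 1 gene lower with SR2211 and 1 with ENZ in place of 0, where 2093 of all 12150 and 2391 of all 19270 genes were lower. Under the same alternatives the count of all genes higher ranged from 256 to 1676 with SR2211, from 394 to 2144 with XY011 and from 187 to 2235 with ENZ. With a pseudocount of 0.1, CYR61 was lower with SR2211 (-1.12) and FOS lower with ENZ (-1.32). At that setting 7 genes in place of 4 had log2 changes at least 1 apart with SR2211 and XY011 (an alternative chosen after seeing the data). The share of all genes that far apart was not counted. With the same pseudocount, 0 in place of 5 passed the shared-change test. That test passed 4 genes with a mean of 5 or more or with quantile scaling, where KLF6 was lost (adjusted p in limma 0.0501 and 0.0671), and 6 with no filter, where FOS was added (adjusted p in limma 0.0170). FOS had no reads in the vehicles of SR2211 and XY011, so in this fit it could only go up. Of all genes, 933 passed upward and 1498 downward of 9225 with a mean of 5 or more. With quantile scaling 1274 and 1301 of 11901 did, and with no filter 1155 and 1705 of 13353. The sign of the changes of IER2 with XY011 and of JUND with ENZ, both near 0, depended on scaling. Depth limits FOS, FOSB and EGR1, which had at most 15 reads in the SR2211 pair.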

Other observations

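Genes whose 250 bases before the start hold a CArG box were looked at across the genome, since EGR1 holds 2 and stayed near the detection limit. Of 93 such genes measured in the XY011 experiment, 21 were higher (22.6%) and 7 lower (7.53%), against 7.25% higher and 13.1% lower of 9953 genes without one, with median log2 changes of 0.08 and -0.14. With SR2211, 9.78% of 92 were higher, against 5.01% of the rest, and with ENZ 3.03% of 99, against 3.26%. Of those 21, SRF itself, ACTG1 (531 to 1889 FPKM), FLNA (29.97 to 63.6) and FHL2 (0.590 to 2.89) were in the gene lists used here and the rest in none. The 5 largest changes, named after their values were seen, were those of the kinase gene MKNK2 (49.8 to 354), ACTG2 (0.750 to 8.51), TPM4 (68.1 to 358), CYP1A1 (0.780 to 7.61) and RASSF5 (1.47 to 10.6). Among the 21, FHL2, ACTG2, CYP1A1 and ATXN1 (0.650 to 4.27) met the minimum through the treated library alone, so they could not have been called lower. Genes whose promoter holds TGACNTCA, as do DUSP1, JUND, JUN and KLF6, were higher with XY011 in 9.72% of 576, against 7.25% of 9470 without it, and with SR2211 in 7.21% of 555, against 4.92% of 9244. These shares include the named genes, all higher with XY011 and all but KLF6 higher with SR2211. Lower were 12.7% against 13.0% with XY011 and 5.77% against 5.6% with SR2211. Median log2 changes were -0.12 against -0.14 and -0.06 against -0.07. Members were not taken out of the shares of the other motifs either. Of the other motifs among the 7 searched, TATAAA gave 9.92% higher against 7.26% with XY011 and 7.95% against 4.9% with SR2211, and TGACG gave 7.48% against 7.36% and 4.58% against 5.26%. The exact TGACGTCA gave 9.36% against 7.34% with XY011 and 6.19% against 5.02% with SR2211, TGANTCA 8.72% against 7.35% and 5.39% against 5.04%, and CACGTG 7.95% against 7.34% and 4.81% against 5.08%. No test was made of these shares, genes with a motif are not replicates, and the CArG and TGACNTCA patterns were picked after the members' promoters were read.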
